A study of Mus musculus with 9 samples.

Results

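The subunits of AMP-activated protein kinase (AMPK) and the kinases that switch it on were followed in C2C12 cells, a mouse line of skeletal muscle myoblasts. The 9 genes were taken by name from the 54307 genes with a value: Prkaa1 and Prkaa2 for the catalytic α subunit, Prkab1 and Prkab2 for β, Prkag1, Prkag2 and Prkag3 for γ, Stk11 for LKB1, and Camkk2 for CaMKKβ. Enriched mRNA was sequenced from 3 groups with 3 libraries each after 48 h of treatment. The NC group was the control, the H group received 25 mmol/L glucose, and the HL group received 25 mmol/L glucose with 200 nmol/L liraglutide, a peptide drug that activates the GLP-1 receptor. The cells were of 1 line with no genetic change given in the labels, and the glucose concentration of the NC medium was not given in the sources used here. A library with mannitol, which would set glucose apart from osmotic load, was not analysed here.

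AMPK is a trimer of 1 α, 1 β and 1 γ subunit that senses the energy state of the cell. The α subunit carries the kinase domain, β is the scaffold and binds glycogen, and γ binds AMP, ADP and ATP. The trimer becomes active when a threonine of the activation loop of α is phosphorylated, either by LKB1 in a complex with the pseudokinase STRAD and the scaffold MO25, or by CaMKKβ when calcium rises. Each subunit has isoforms from separate genes, and α2, β2 and γ3 are best known from mature skeletal muscle. Activity is set by phosphorylation and nucleotides, so that the amount of mRNA says nothing of activity by itself.

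Members were read as FPKM, fragments scaled to the length of the transcript and to the mapped reads of the library, which is a scale per length on which genes can be compared. Differences between groups are log2 fold changes of FPKM + 0.1 with their standard error (SE) and the adjusted p of limma. A gene is said to have risen or fallen where that adjusted p was under 0.05, and it is called where the absolute log2 fold change was also over 1. Of the 9 members, 8 reached 1 FPKM in at least 3 libraries and were tested among 13674 genes, and Prkag3 did not. The depth behind the values was between 17.4 and 22.6 M reads per library, estimated from the smallest steps of low values. Replicates of the H group were less alike than those of the others, since the SD of a gene's log2 values had a median of 0.171 there, 0.0723 in NC and 0.0865 in HL. The 7 myoblast markers summed to between 422 and 435 FPKM in NC, 291 and 437 in H, and 611 and 632 in HL, and did not move together. Myod1, a myogenic transcription factor, stood at 18.2 ± 0.264 FPKM in NC, 8.16 ± 4.35 in H and 13.1 ± 0.680 in HL, and Myf5, another such factor, at 7.32 ± 0.603, 11.3 ± 0.900 and 20.9 ± 1.96 (SD, n = 3 each), while Pax7 was under 1 FPKM in every library. The 7 macrophage markers summed to between 5.40 and 6.65 FPKM in NC, 106 and 169 in H, and 19.3 and 20.5 in HL. Of these, Csf1r stood at 0.451 ± 0.205 FPKM in NC, 125 ± 29.8 in H and 0.262 ± 0.0177 in HL, and Cd68 at 4.78 ± 0.704, 17.6 ± 3.69 and 19.0 ± 0.631. The other 5 did not reach 1 FPKM, and the pan-leukocyte gene Ptprc had a mean of at most 0.0109 FPKM in any group. Endothelial markers summed to at most 3.96 FPKM in any library, and those of adipocytes to between 17.7 and 26.2 FPKM. Their part in the values of the members was not tested. Fewer cells with an mRNA and less of that mRNA per cell cannot be told apart in such bulk samples.

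The catalytic isoforms and the upstream kinases are shown by the 250 bases before their start. They were chosen because the H libraries of Prkaa1 lay below those of NC and the H libraries of Prkaa2 above them. The difference of Prkaa2 in H against NC did not pass the test (limma adjusted p = 0.0720). The sequences are those of RefSeq on build GRCm38.p6, written 5′ to 3′ along the gene, and capitals mark the GC box GGGCGG of SP factors and the CCAAT box of NF-Y on either strand. The Prkaa1 window lies at chr15:5143611-5143860 on the plus strand, the Prkaa2 window at chr4:105109899-105110148 on the minus strand, the Stk11 window at chr10:80115545-80115794 on the plus strand and the Camkk2 window at chr5:122779411-122779660 on the minus strand.
Prkaa1: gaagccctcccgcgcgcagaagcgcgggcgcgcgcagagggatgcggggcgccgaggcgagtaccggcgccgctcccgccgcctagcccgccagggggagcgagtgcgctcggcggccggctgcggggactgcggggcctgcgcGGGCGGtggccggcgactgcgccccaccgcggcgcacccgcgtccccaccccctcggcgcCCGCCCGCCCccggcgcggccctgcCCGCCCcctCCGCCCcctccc
Prkaa2: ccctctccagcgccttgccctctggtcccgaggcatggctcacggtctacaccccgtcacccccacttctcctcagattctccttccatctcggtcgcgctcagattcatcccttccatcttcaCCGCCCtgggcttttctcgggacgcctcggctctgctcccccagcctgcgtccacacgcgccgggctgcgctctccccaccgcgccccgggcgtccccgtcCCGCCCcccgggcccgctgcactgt
Stk11: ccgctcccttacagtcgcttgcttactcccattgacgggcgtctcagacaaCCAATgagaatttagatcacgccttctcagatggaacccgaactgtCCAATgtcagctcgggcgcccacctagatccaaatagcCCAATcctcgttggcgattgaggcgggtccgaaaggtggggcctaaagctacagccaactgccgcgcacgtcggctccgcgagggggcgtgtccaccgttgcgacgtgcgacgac
Camkk2: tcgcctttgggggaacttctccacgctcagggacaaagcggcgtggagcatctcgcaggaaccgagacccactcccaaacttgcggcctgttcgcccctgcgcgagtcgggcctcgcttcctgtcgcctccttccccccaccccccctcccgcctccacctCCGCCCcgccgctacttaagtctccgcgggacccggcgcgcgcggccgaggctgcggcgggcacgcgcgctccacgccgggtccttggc
The Prkaa1 window was 85.2% G and C, with 45 CpG dinucleotides and 5 GC boxes, some of them overlapping. The Prkaa2 window was 70.0% G and C, with 24 CpG and 2 GC boxes. The median over 32851 RefSeq promoter windows of this length was 52.4% and 6 CpG, so both windows lay above these medians, Prkaa1 further than Prkaa2. Stk11 had 24 CpG, 3 CCAAT boxes and 0 GC boxes, and Camkk2 had 32 CpG and 1 GC box. A GC box was found in 32.7% and a CCAAT box in 33.8% of all windows. The E-box CACGTG, the full cAMP response element TGACGTCA and the TATA box TATAAA, searched on both strands, were in none of the windows of the 9 genes, and were in 6.02%, 1.55% and 12.4% of all windows. The myogenic E-box CAGCTG was found in 1 of the members, Prkag3, and in 13.0% of all windows. Such matches describe the letters of these windows and not the binding of a factor.

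Compared with the NC group, Prkaa1, Prkag1, Stk11 and Camkk2 fell and Prkab2 rose in the H group. Compared with the H group, Prkaa1 and Prkag2 rose and Camkk2 fell in the HL group. Compared with the NC group, the HL group had more Prkaa2, Prkab2 and Prkag2 and less Prkag1, Stk11 and Camkk2. Each of these differences passed the limma test and 0 of them reached a log2 fold change of 1. By group means, Camkk2 was lowest, and Prkaa2, Prkab2 and Prkag2 highest, in the HL group, while Prkaa1 was lowest in the H group. The differences of Prkaa2 and Prkab2 in HL against H did not pass the test.

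In control myoblasts the mRNA of each subunit came mostly from 1 gene. In the NC group the levels ran from Prkag1 (78.1 ± 3.90 FPKM, SD, n = 3) through Stk11 (60.5 ± 1.64), Prkaa1 (41.6 ± 0.461), Prkab1 (24.6 ± 1.10) and Camkk2 (10.4 ± 0.144) to Prkag2 (5.67 ± 0.726), Prkab2 (5.47 ± 0.0863), Prkaa2 (1.0 ± 0.0174) and Prkag3 (0.162 ± 0.102). The ranges of neighbours in this order did not overlap, except those of Prkag2 and Prkab2. Over the 9 libraries, the mean of Prkag1 lay at percentile 88.9 of the tested genes, that of Stk11 at 85.1, Prkaa1 at 77.8 and Prkaa2 at 9.5. In the H group the order was the same down to Camkk2, and the ranges of Prkab2 and Prkag2 overlapped again, that of Prkag2 reaching into the range of Camkk2. In the HL group the order of the middle members was turned: Prkag2 came before Prkab2 and Prkab2 before Camkk2, with no overlap between neighbours.

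**Figure D1:**
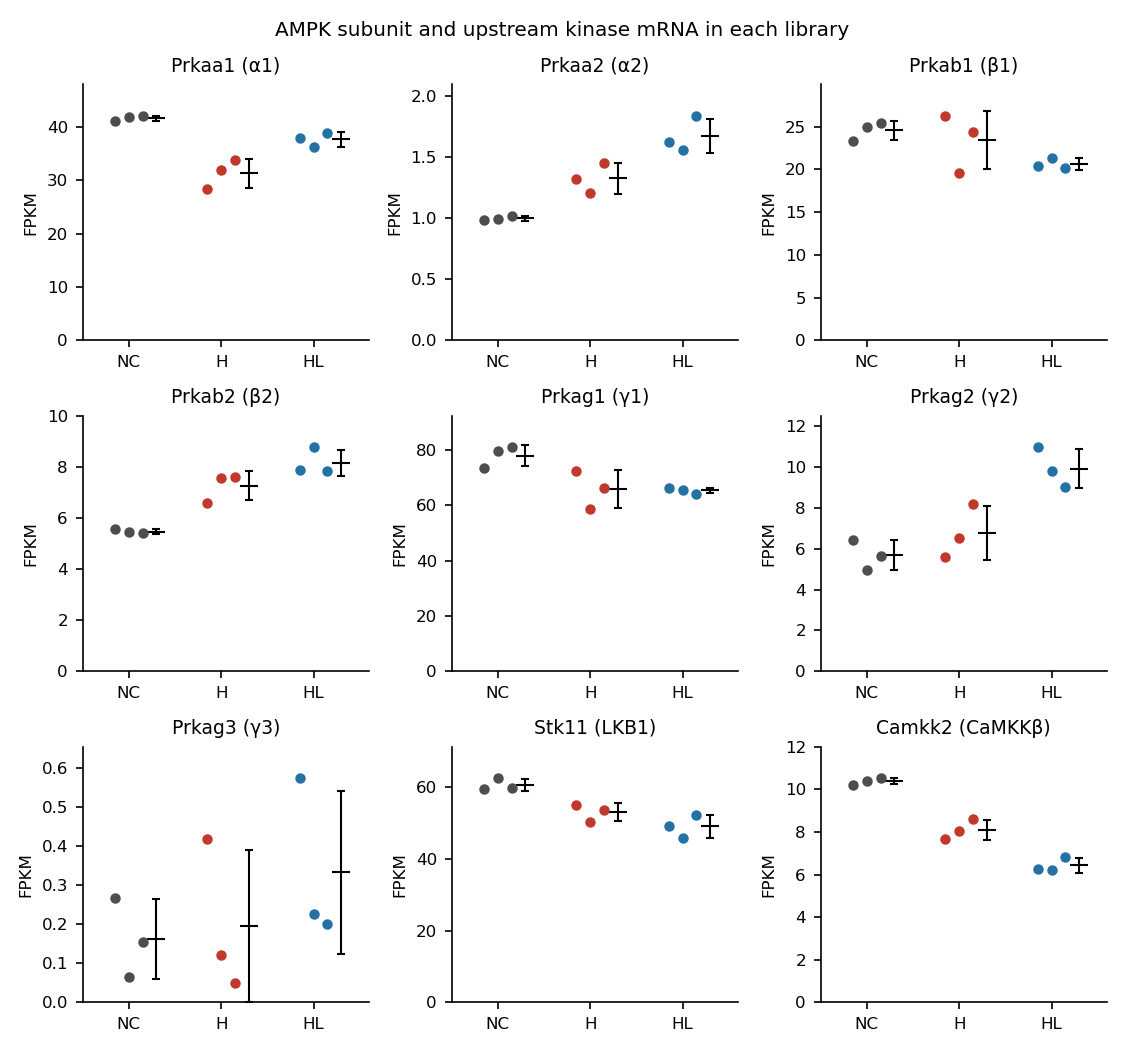
FPKM of the 9 members in each library (points, in the order of the replicates) with the mean and SD of each group of 3 (bars), on axes that start at 0. Prkaa1 was lowest in the H group, at 28.3 to 33.7 FPKM, while Camkk2 stepped down from 10.2 to 10.52 FPKM in NC to 6.20 to 6.84 in HL and Prkag2 reached 9.01 to 10.9 FPKM in HL.

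Of the catalytic subunits, Prkaa1, the gene of α1 (ENSMUSG00000050697.10, chr15:5143861-5181899, plus strand, build GRCm38), gave 41.1, 41.8 and 41.9 FPKM in the NC libraries, 28.3, 31.9 and 33.7 in H, and 38.0, 36.2 and 38.9 in HL. The 3 groups did not overlap: every H library lay below every HL library, and every HL library below every NC library. Compared with the NC group, Prkaa1 fell in the H group by 0.41 on the log2 scale (SE 0.07, limma adjusted p = 0.00067). Compared with the H group, it rose in the HL group by 0.27 (SE 0.07, limma adjusted p = 0.0103). The difference of HL against NC was -0.14 and did not pass the test (SE 0.07, limma adjusted p = 0.114). It passed in 3 of 20 settings by limma. These were variance weights per group (adjusted p = 0.0187), a fit of only these groups (0.0148) and leaving out H replicate 1 (0.0293).

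Prkaa2, the gene of α2 (ENSMUSG00000028518.9, chr4:105029874-105109890, minus strand), was near 1 FPKM. It gave 0.987, 0.993 and 1.02 FPKM in NC, 1.32, 1.20 and 1.46 in H, and 1.63, 1.56 and 1.84 in HL, with no overlap between groups. In the direction of NC, H and HL its level thus stood higher at each step, unlike Prkaa1. HL against NC was the comparison in which Prkaa2 rose, by 0.69 (SE 0.16, limma adjusted p = 0.00679). The differences of H against NC (0.37, SE 0.16, limma adjusted p = 0.0720) and of HL against H (0.32, SE 0.16, limma adjusted p = 0.136) did not pass. Although low, these values rested on 160 to 273 reads per library by the depth estimate, since the annotated transcript is 7969 bases long.

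Prkaa2 made up 2.35% ± 0.0274 of the summed FPKM of both α genes in NC, 4.08% ± 0.414 in H and 4.25% ± 0.217 in HL (SD, n = 3 each). Its share was between 2.32% and 2.37% in NC, between 3.64% and 4.46% in H and between 4.12% and 4.50% in HL. The H and HL libraries overlapped in this share and both lay apart from NC. Since Prkaa1 was at least 95.5% of the sum in every library, the summed α level followed Prkaa1, with 42.6 ± 0.473 FPKM in NC, 32.6 ± 2.79 in H and 39.4 ± 1.52 in HL.

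Of the scaffold subunits, Prkab1, the gene of β1 (ENSMUSG00000029513.15, chr5:116013586-116024508, minus strand), gave 23.4, 25.0 and 25.5 FPKM in NC, 26.2, 19.6 and 24.4 in H, and 20.4, 21.4 and 20.1 in HL. The H libraries spanned the range of both other groups. None of its differences passed the test, with -0.08 for H against NC (SE 0.10, limma adjusted p = 0.508), -0.17 for HL against H (SE 0.10, limma adjusted p = 0.184) and -0.25 for HL against NC (SE 0.10, limma adjusted p = 0.0626). H replicate 2 was the lowest of these libraries, and without it the values of H against NC and HL against H were 0.04 (limma adjusted p = 0.586) and -0.29 (limma adjusted p = 0.00491).

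Prkab2, the gene of β2 (ENSMUSG00000038205.13, chr3:97658193-97673812, plus strand), gave 5.57, 5.45 and 5.40 FPKM in NC, 6.61, 7.57 and 7.62 in H, and 7.90, 8.77 and 7.83 in HL. The groups did not overlap, and HL lay highest. Prkab2 rose by 0.40 in H against NC (SE 0.09, limma adjusted p = 0.00315) and by 0.57 in HL against NC (SE 0.09, limma adjusted p = 0.000692). Its difference of 0.17 in HL against H did not pass (SE 0.09, limma adjusted p = 0.140). As a share of both β genes, Prkab2 was 18.2% ± 0.917 in NC, 23.9% ± 3.84 in H and 28.3% ± 0.650 in HL. The summed β level hardly moved, at 30.1 ± 1.02, 30.7 ± 3.04 and 28.8 ± 1.19 FPKM in the 3 groups.

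Of the nucleotide-binding subunits, Prkag1, the gene of γ1 (ENSMUSG00000067713.8, chr15:98812797-98831521, minus strand), gave 73.6, 79.6 and 81.0 FPKM in NC, 72.4, 58.8 and 66.4 in H, and 66.3, 65.8 and 64.2 in HL. It had the highest level of the 9 genes in each library. It fell by 0.25 in H against NC (SE 0.08, limma adjusted p = 0.0177) and by 0.25 in HL against NC (SE 0.08, limma adjusted p = 0.0207). For HL against H the difference was -0.0045 (SE 0.08, limma adjusted p = 0.965). Here the HL libraries lay within the range of the H libraries. Both falls depended on single libraries: without NC replicate 3 the adjusted p was 0.0648 for H against NC and 0.0743 for HL against NC, without NC replicate 2 it was 0.0576 and 0.0663, and without HL replicate 2 or 3 that of HL against NC was 0.0506 and 0.0629 (limma). On the TPM scale described further on, the difference of HL against NC was -0.16 and did not pass (limma adjusted p = 0.120).

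Prkag2, the gene of γ2 (ENSMUSG00000028944.15, chr5:24862744-25100642, minus strand), gave 6.42, 4.97 and 5.63 FPKM in NC, 5.61, 6.52 and 8.19 in H, and 10.9, 9.79 and 9.01 in HL. The HL libraries stood above all others, and NC and H overlapped. Prkag2 rose by 0.56 in HL against H (SE 0.15, limma adjusted p = 0.0135) and by 0.80 in HL against NC (SE 0.15, limma adjusted p = 0.00211), the widest fold difference among the tested members. H against NC gave 0.24 and did not pass (SE 0.15, limma adjusted p = 0.189). Without HL replicate 1, the adjusted p of HL against H was 0.0521 (limma). Its gene has 3 starts in RefSeq, and FPKM per gene do not tell the transcripts apart.

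Prkag3, the gene of γ3 (ENSMUSG00000006542.14, chr1:74738922-74749221, minus strand), gave 0.268, 0.0643 and 0.155 FPKM in NC, 0.418, 0.122 and 0.0510 in H, and 0.574, 0.226 and 0.201 in HL. The groups overlapped, and in each of them replicate 1 was the highest library. Prkag2 was 6.78% ± 1.09 of the summed γ level in NC, 9.36% ± 1.97 in H and 13.1% ± 0.909 in HL, and Prkag3 was at most 0.738% in every library. The summed γ level was 83.9 ± 3.28 FPKM in NC, 72.8 ± 6.69 in H and 75.7 ± 2.17 in HL.

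**Figure D2:**
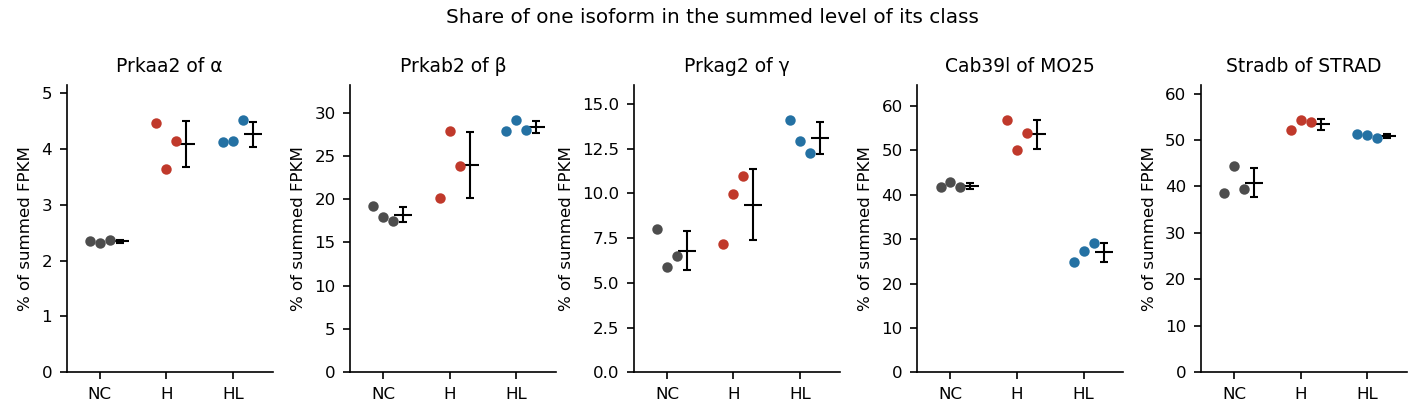
Share of 1 isoform in the summed FPKM of its class in each library, in percent, with the mean and SD of each group of 3 (bars). Prkaa2, Prkab2 and Prkag2 held 2.35%, 18.2% and 6.78% of their classes in NC and 4.25%, 28.3% and 13.1% in HL, while Cab39l held 42.1% of MO25 in NC, 53.6% in H and 27.1% in HL.

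Set against each other, the subunit classes kept close to a fixed ratio in NC and HL and spread in H. The γ sum was 1.97 ± 0.0558 times the α sum in NC, 2.25 ± 0.352 times in H and 1.93 ± 0.109 times in HL. The β sum was 0.706 ± 0.0161 times the α sum in NC, 0.947 ± 0.146 times in H and 0.733 ± 0.0590 times in HL. The β to α ratio of H lay between 0.822 and 1.11, above the 0.688 to 0.719 of NC and the 0.685 to 0.799 of HL. The γ to α ratio of H ranged from 1.98 to 2.65 and overlapped the 1.91 to 2.02 of NC. H replicate 1, the library with the lowest Prkaa1, had the highest value of both ratios.

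The less abundant isoforms were read beside the markers of differentiated muscle. These 8 markers, among them Myog, a myogenic factor of differentiation, and Acta1, skeletal muscle actin, summed to between 19.6 and 25.7 FPKM in NC, 16.1 and 19.9 in H, and 43.1 and 49.4 in HL. Of the 6 that were tested, 6 were called higher in HL against H, where 9.38% of all tested genes were called in either direction. In H against NC 0 of them rose or fell, where 60.1% of all tested genes did. Of these 6, Myog and Ryr1 were under 1 FPKM in every NC and H library. Both were tested only through HL, where they were high, so the 6 of 6 was in part set by the choice of tested genes. Myog stood at 0.825 ± 0.123 FPKM in NC, 0.682 ± 0.0404 in H and 1.98 ± 0.188 in HL, and Myh3, embryonic myosin heavy chain, at 0.196 ± 0.0387, 0.173 ± 0.0391 and 0.582 ± 0.0717. Their sum was thus highest in the group in which Prkaa2, Prkab2 and Prkag2 were highest, although Mymk, a fusion factor, was at 0.966 ± 0.371 FPKM in NC, 0.245 ± 0.0633 in H and 0.586 ± 0.286 in HL. The groups of Prkag3 overlapped. In the H group the sum was not higher than in NC, whereas Prkaa2 and Prkab2 of every H library were. The part of these markers in the levels of the subunits was not tested.

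Of the upstream kinases, Stk11 (ENSMUSG00000003068.18, chr10:80115803-80130682, plus strand), the gene of LKB1, gave 59.5, 62.4 and 59.7 FPKM in NC, 55.1, 50.2 and 53.7 in H, and 49.3, 45.9 and 52.2 in HL. Both treated groups lay below NC and overlapped each other. Stk11 fell by 0.19 in H against NC (SE 0.06, limma adjusted p = 0.0228) and by 0.30 in HL against NC (SE 0.06, limma adjusted p = 0.00329). The difference of HL against H was -0.11 and did not pass (SE 0.06, limma adjusted p = 0.167). H against NC no longer passed without NC replicate 2 (adjusted p = 0.0836), NC replicate 3 (0.0503) or H replicate 2 (0.0515), or with variance weights per group (0.0531), all by limma.

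Camkk2 (ENSMUSG00000029471.14, chr5:122731170-122779409, minus strand), the gene of the calcium-dependent kinase CaMKKβ, gave 10.2, 10.4 and 10.52 FPKM in NC, 7.65, 8.07 and 8.61 in H, and 6.29, 6.20 and 6.84 in HL. The groups did not overlap, and each step went down. Camkk2 fell by 0.35 in H against NC (SE 0.08, limma adjusted p = 0.00293), by 0.33 in HL against H (SE 0.08, limma adjusted p = 0.00648) and by 0.68 in HL against NC (SE 0.08, limma adjusted p = 0.000125). It was the member that fell in each of the 3 comparisons. Its paralogue Camkk1 gave 6.65, 6.23 and 6.61 FPKM in NC, 5.31, 4.20 and 5.56 in H, and 6.78, 6.99 and 6.65 in HL. Camkk1 fell by 0.37 in H against NC (SE 0.11, limma adjusted p = 0.0147) and rose by 0.44 in HL against H (SE 0.11, limma adjusted p = 0.00911). Camkk2 was therefore the higher of both genes in every NC and H library, and in HL the ranges of both overlapped, at 6.20 to 6.84 FPKM for Camkk2 and 6.65 to 6.99 for Camkk1.

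Set against all genes, the members moved by small amounts. In H against NC, 0 of 8 tested members were called, where 16.0% of all tested genes were, and 5 passed on the adjusted p alone (1 higher, 4 lower), where 60.1% of all tested genes did (27.1% higher, 33.0% lower). In HL against H, 0 of 8 were called against 9.38%, and 3 passed on the adjusted p alone (2 higher, 1 lower) against 48.4% (26.7% higher, 21.7% lower). In HL against NC, 0 of 8 were called against 8.72%, and 6 passed on the adjusted p alone (3 higher, 3 lower) against 48.8% (21.6% higher, 27.2% lower). The members that passed were thus about as frequent as among all genes in the first comparison, fewer in the second and more in the third, over only 8 genes. At an unadjusted p under 0.05 the counts were 6, 3 and 7 (limma), against 64.1%, 55.2% and 55.6% of all tested genes. The ranges of the groups did not overlap for 6 members in H against NC (65.5% of all genes), 5 in HL against H (55.3%) and 8 in HL against NC (65.8%). The median log2 fold change of the members was -0.14, 0.08 and -0.20 in these comparisons, beside -0.04, 0.04 and -0.04 over all tested genes. The comparisons share groups and are not independent of each other.

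**Figure D3:**
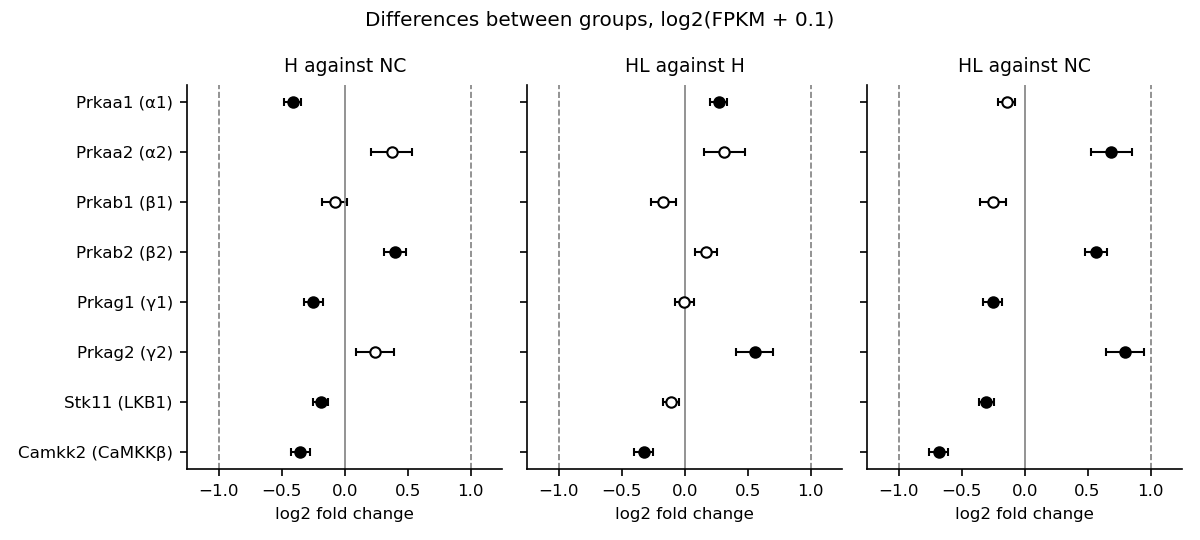
Log2 fold changes of FPKM + 0.1 for the 8 tested members in the 3 comparisons, with bars of 1 SE from limma. Filled points had an adjusted p under 0.05 and dashed lines mark the fold threshold of 1, which 0 of the 8 members reached, with values between -0.68 and 0.80.

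Some of the differences of the members depended on whether the libraries were rescaled to the same sum. The summed FPKM of a library was between 757000 and 765681 in NC, 649733 and 683362 in H, and 698627 and 731929 in HL. Rescaling each library to the same sum, as TPM (transcripts scaled to a fixed total) does, moved the median of all genes in H against NC from -0.04 to 0.15. The share of higher genes among those called moved from 64.1% to 76.8%, and among those with an adjusted p under 0.05 from 45.1% to 64.9%. On that scale Prkaa1 still fell by 0.22 (limma adjusted p = 0.0448) and Prkab2 rose by 0.59 (limma adjusted p = 0.000450). Prkag1, Stk11 and Camkk2 no longer passed in H against NC, with adjusted p of 0.552, 0.998 and 0.137, and Prkaa2 and Prkag2 did, with log2 fold changes of 0.56 and 0.43 (limma adjusted p = 0.0194 and 0.0414). Such rescaling multiplies all genes of a library by the same factor, so the place of a gene relative to the median of all genes hardly changes by it. With each library centred on the median of its genes instead, Prkag1, Stk11 and Camkk2 still fell in H against NC. Their log2 fold changes were then -0.23, -0.17 and -0.33 (limma adjusted p = 0.0241, 0.0303 and 0.00319), and Prkaa2 and Prkag2 did not pass (0.0580 and 0.150). In HL against H on the TPM scale, Camkk2 fell by 0.42 (limma adjusted p = 0.00374), while Prkaa1 had 0.17 and did not pass (limma adjusted p = 0.118). Stk11, which did not pass in HL against H on the FPKM scale, had -0.21 there and passed (limma adjusted p = 0.0372).

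The genes whose levels were most like those of the α isoforms over the 9 libraries were ranked by Pearson correlation of log2 values among 9848 genes with a mean of at least 5 FPKM. For Prkaa1 these were Pnpt1 (r = 0.990), Tmem242 (r = 0.989) and Chchd6 (r = 0.988). Tmem242 stood at 85.6 ± 0.378 FPKM in NC, 56.4 ± 5.70 in H and 74.0 ± 1.49 in HL, low in H and partly back in HL as Prkaa1 was. For Prkaa2 they were Jup (r = 0.986), Tspan5 (r = 0.986) and AU018091 (r = 0.981). Jup, the gene of plakoglobin, stood at 7.64 ± 0.667 FPKM in NC, 18.0 ± 4.17 in H and 31.8 ± 1.81 in HL, a rising order as for Prkaa2. With 9 libraries in 3 groups, such values mostly describe the order of the groups, and libraries share their depth and scaling.

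LKB1 works with its partners STRAD and MO25, whose genes were listed with other regulators. Of 19 upstream regulators and partners of AMPK, 2 were called higher and 0 lower in H against NC, where 16.0% of all tested genes were called. On the adjusted p alone 10 rose and 3 fell, 68.4% of the list beside 60.1% of all tested genes, with a median log2 fold change of 0.21 beside -0.04. Cab39l, the gene of MO25β, gave 26.9, 28.2 and 26.9 FPKM in NC, 57.6, 41.6 and 50.1 in H, and 13.0, 14.98 and 15.9 in HL. Cab39l thus stood highest in H and lowest in HL, with log2 fold changes of 0.85 in H against NC (SE 0.12, limma adjusted p = 0.000205) and -1.75 in HL against H (SE 0.12, limma adjusted p = 7.77e-06). Cab39, the gene of MO25α, gave 37.6 FPKM in each NC library, 44.0, 41.5 and 42.7 in H, and 39.2, 39.9 and 38.9 in HL, with a rise of 0.18 in H against NC (SE 0.05, limma adjusted p = 0.00740). Together the MO25 genes summed to 65.0 ± 0.720 FPKM in NC, 92.5 ± 9.21 in H and 54.0 ± 1.52 in HL. Strada, the gene of the STRAD pseudokinase α form, fell by 0.50 in H against NC (SE 0.08, limma adjusted p = 0.000412) and rose by 0.35 in HL against H (SE 0.08, limma adjusted p = 0.00498). Stradb was 40.8% ± 3.09 of the STRAD sum in NC, 53.4% ± 1.16 in H and 50.9% ± 0.461 in HL.

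Flcn, the gene of folliculin, which binds AMPK through the FNIP proteins, gave the widest change of this list. It stood at 6.17, 5.54 and 6.26 FPKM in NC, 35.8, 25.2 and 27.5 in H, and 11.8, 10.9 and 11.3 in HL. Flcn was called higher in H against NC with 2.27 (SE 0.12, limma adjusted p = 6.95e-07) and lower in HL against H with -1.36 (SE 0.12, limma adjusted p = 3.51e-05). Fnip2 was called higher in H against NC with 1.34 (SE 0.11, limma adjusted p = 6.76e-06), from 4.98 ± 0.403 to 12.8 ± 1.70 FPKM, and stood at 9.24 ± 0.172 in HL. Fnip1 rose by 0.61 in H against NC (SE 0.11, limma adjusted p = 0.000946). All 3 genes of the folliculin complex thus lay higher in every H library than in every NC library, though Fnip1 was picked with its values known. A full separation of H from NC libraries, in either direction, was common and held for 65.5% of all tested genes. In HL against H, 1 of the 19 genes was called higher and 2 lower, where 9.38% of all tested genes were called. On the adjusted p alone 5 rose and 6 fell (57.9% beside 48.4% of all tested genes), and the median was -0.05. The gene called higher was Ppm1e, a phosphatase that acts on AMPK, at 0.527 ± 0.0701 FPKM in NC, 0.573 ± 0.218 in H and 1.48 ± 0.0550 in HL (1.28, SE 0.27, limma adjusted p = 0.00435), and with a pseudocount of 1 its difference was 0.67. Ppm1e was under 1 FPKM in every NC and H library. It was tested only through HL, where it was high, and could be called there only as a rise.

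**Figure D4:**
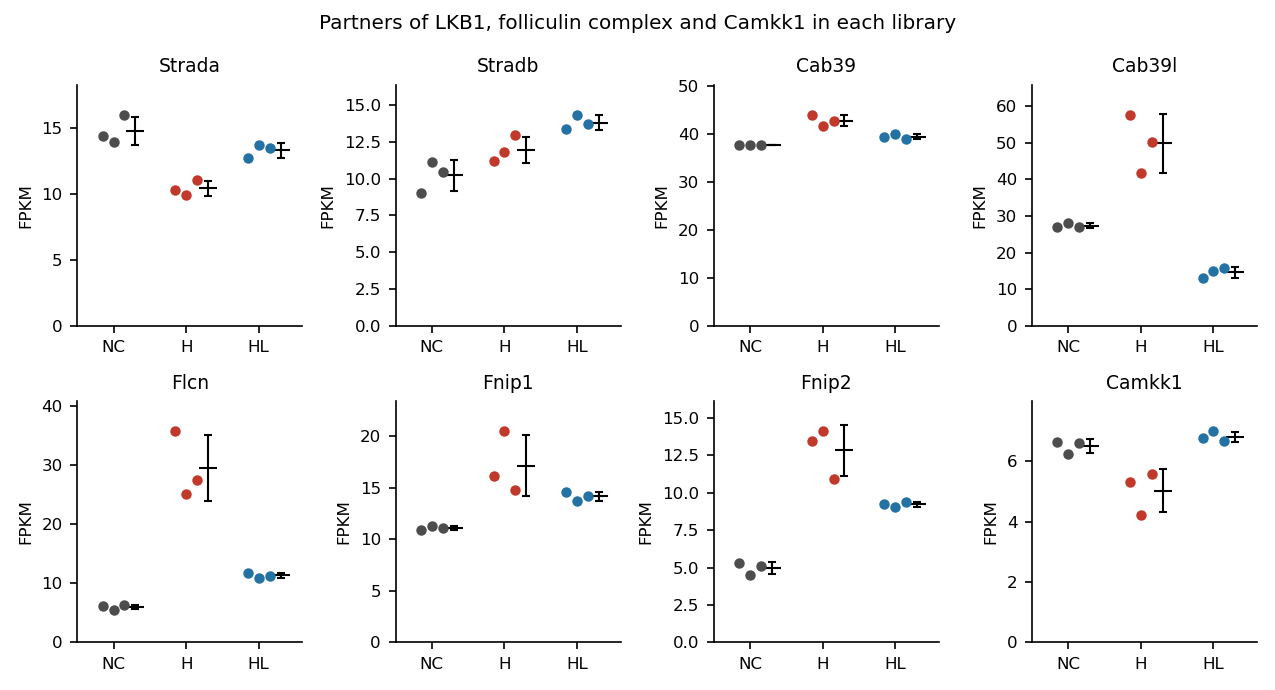
FPKM of the partners of LKB1 (Strada, Stradb, Cab39, Cab39l), the folliculin complex (Flcn, Fnip1, Fnip2) and Camkk1 in each library, with the mean and SD of each group of 3 (bars), on axes that start at 0. Flcn rose from 5.54 to 6.26 FPKM in NC to 25.2 to 35.8 in H, and Cab39l was highest in H and lowest in HL.

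Of the 12 AMPK-related kinases that LKB1 also activates, 11 were tested. In H against NC, 1 was called higher, where 16.0% of all tested genes were called. On the adjusted p alone 5 rose and 1 fell (54.5% beside 60.1% of all tested genes), and the median was 0.14. The called gene was Sik2, a salt-inducible kinase, at 9.61 ± 0.880 FPKM in NC, 20.8 ± 2.30 in H and 10.7 ± 0.352 in HL (1.11, SE 0.10, limma adjusted p = 1.12e-05). In HL against H, 0 were called, where 9.38% of all tested genes were. On the adjusted p alone 2 rose and 5 fell, 63.6% of the list beside 48.4% of all tested genes. At an unadjusted p under 0.05, 7 passed (limma), where 55.2% of all tested genes did, and the median was -0.39 beside 0.04 for all genes. The members of this list with the highest level were Mark3, at 41.2 ± 3.97 FPKM in H and 42.3 ± 0.945 in HL, and Sik3, which fell from 32.7 ± 2.35 to 24.5 ± 0.279 FPKM (-0.41, SE 0.06, limma adjusted p = 0.000690). In HL against NC, where 8.72% of all tested genes were called, 2 were called lower. These were Mark1 with -2.04 (SE 0.59, limma adjusted p = 0.0177) and Nuak2 with -1.16 (SE 0.14, limma adjusted p = 0.000164), both named after their values were seen. On the adjusted p alone 1 of the list rose and 2 fell, 27.3% beside 48.8% of all tested genes. Mark1 was at 0.178 FPKM in H replicate 1 against 1.24 and 1.45 in the other H libraries, and its call was lost without NC replicate 3 (adjusted p = 0.0512) or HL replicate 2 (0.0572). With a pseudocount of 1, Mark1 had -0.92 and Nuak2 -0.93, and neither was called.

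Downstream, 30 of 31 genes whose proteins AMPK phosphorylates were tested. In H against NC, 4 were called higher and 0 lower, where 16.0% of all tested genes were called. On the adjusted p alone 12 rose and 8 fell (66.7% beside 60.1% of all tested genes), and the median was 0.12. Ppargc1a, the coactivator PGC-1α of mitochondrial genes, was called with 3.48 (SE 0.26, limma adjusted p = 4.96e-06), from 0.197 ± 0.0190 to 3.36 ± 1.11 FPKM. Lipe, hormone-sensitive lipase, was called with 2.42 (SE 0.13, limma adjusted p = 7.07e-07) and stood at 2.66 ± 0.345, 14.6 ± 1.45 and 3.49 ± 0.369 FPKM in NC, H and HL. Both are thus examples that stood highest in H. Pnpla2, adipose triglyceride lipase, was called with 1.08 (SE 0.11, limma adjusted p = 3e-05), and without H replicate 1 its difference was 0.98. Txnip, an arrestin that curbs glucose uptake, had 1.31 (SE 0.40, limma adjusted p = 0.0202), but its H libraries were at 49.1, 147 and 181 FPKM and the call was lost without NC replicate 2 (0.0551), NC replicate 3 (0.0573), H replicate 2 (0.0774) or H replicate 3 (0.0564), and in a fit of only these groups (0.0506). In HL against H, where 9.38% of all tested genes were called, 0 were called higher and 1 lower, which was Lipe with -2.03 (SE 0.13, limma adjusted p = 6.45e-06). On the adjusted p alone 9 rose and 6 fell (50% beside 48.4% of all tested genes), and the median was -0.08.

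Enzymes that set the AMP to ATP ratio sensed by the γ subunit were tested for 12 of 17 genes. In H against NC, 1 was called higher and 1 lower, where 16.0% of all tested genes were called. On the adjusted p alone 2 rose and 5 fell (58.3% beside 60.1% of all tested genes), and the median was -0.24. Ampd3, an AMP deaminase, was called with 1.46 (SE 0.09, limma adjusted p = 1.91e-06), at 21.3 ± 1.80 FPKM in NC and 58.9 ± 7.07 in H. Ak4, a mitochondrial adenylate kinase, was called lower with -1.34 (SE 0.25, limma adjusted p = 0.00125), at 9.001 ± 0.537 and 3.64 ± 1.15 FPKM in NC and H. In HL against H, 0 were called higher and 1 lower, where 9.38% of all tested genes were called. On the adjusted p alone 5 rose and 4 fell (75% beside 48.4%), and the median was 0.17. The called gene, the adenylate kinase Ak5, was low, at 1.22 ± 0.154 FPKM in H and 0.390 ± 0.0767 in HL (-1.44, SE 0.24, limma adjusted p = 0.00117), and had -0.68 with a pseudocount of 1. Ak5 was under 1 FPKM in every NC and HL library. It was tested only through H, where it was high, and could be called in HL against H only as a fall. Of 17 genes of glucose uptake, fat oxidation and mitochondria, 13 were tested. In H against NC 1 was called higher (beside 16.0% of all tested genes called), 3 rose and 3 fell (46.2% beside 60.1%), and the median was -0.13. In HL against H 1 was called lower (beside 9.38% called), 2 rose and 1 fell (23.1% beside 48.4%), and the median was 0.10. The called gene was in both cases Pdk4, a kinase that inhibits pyruvate dehydrogenase, at 3.65 ± 0.136 FPKM in NC, 24.3 ± 2.61 in H and 9.47 ± 0.559 in HL (2.70 and -1.35, SE 0.09 each, limma adjusted p = 1.14e-07 and 8.12e-06). In HL against NC, 8.72% of all tested genes were called. The genes called there in these lists, named after their values were seen, were Ppm1e among the regulators (1.34), Ppargc1a among the substrates (2.56), Ak4 among the nucleotide enzymes (-1.18), and Pdk4 and Slc2a1, a glucose transporter, in the last list (1.35 and 1.01), on the log2 scale. Ppm1e had 0.70 with a pseudocount of 1 and Slc2a1 0.99 without HL replicate 1, and neither was then called. Here too, Ppm1e was tested only through its HL libraries.

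**Figure D5:**
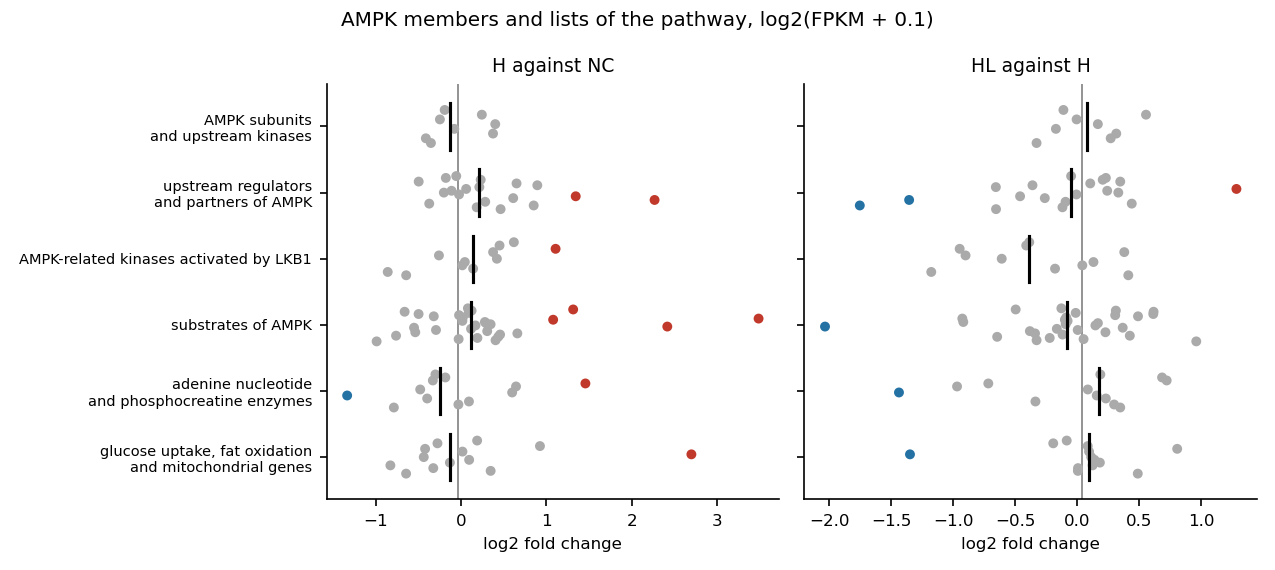
Log2 fold changes of FPKM + 0.1 in H against NC and HL against H for the tested genes of the members' list and of the 5 lists around AMPK (points, with vertical offsets for display only). Coloured points were called, short black bars are list medians and the grey line is the median of all tested genes, and the 8 members lie between -0.41 and 0.56 with 0 called while Ppargc1a reached 3.48.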

How the data were processed

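The authors sequenced mRNA of C2C12 cells on an Illumina HiSeq, trimmed the reads with Fastp, aligned them with HISAT2 (2.1.0) and computed FPKM with StringTie (1.3.3b), per the labels and methods. The deposited values are 1 FPKM per gene and library. The sources differ in the quantifier and the genome they name, so coordinates are those of GENCODE M21 (GRCm38), matched by Ensembl ID. Of 54307 genes, 51482 matched a symbol. FPKM are not counts, so no count test was run. Log2(FPKM + 0.1) was tested with limma (3.58.1, statmod 1.5.0, R 4.3.3) with trend and robust options in 1 fit of 9 libraries (6 residual degrees of freedom), over genes with at least 1 FPKM in at least 3 libraries, with Benjamini-Hochberg adjustment within each comparison. The fit was tested on simulated data for H against NC, with the same SD in all groups of a gene. That run does not cover the wider spread of the H group. Depth was the value of 1 read in genes with 1 transcript of at least 800 bases, where 97.9% to 99.7% of values up to 10 reads came within 0.1 of a whole number.

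The members were given by name, and they and the lists were chosen with earlier results of these data known. Named genes were the 9 members, up to 4 called genes with the largest change per list in H against NC and in HL against H (or the 2 with the highest mean where 0 were called), and 3 genes most like Prkaa1 and Prkaa2. Partners of LKB1, Camkk1 and Fnip1 were added after their values were seen. Alternatives were other pseudocounts, filters, scalings, variance options, a replicate block and leaving out each library. Whether the replicate libraries were grown as separate cultures is not given in the sources used here, and if they were not, the p-values measure spread that may be technical. Shares and ratios were given without tests. Figures were made in Python 3.11.15 with matplotlib 3.10.9.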

Additional observations from a re-analysis of the deposited data

How the results depend on the processing

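No member was called under any alternative that kept the fold threshold, and on the adjusted p alone 5, 3 and 6 of 8 members passed in H against NC, HL against H and HL against NC. Leaving out 1 library gave 3 to 5, 2 to 4 and 5 to 8 members on the adjusted p (3 in H against NC without NC replicate 2 or NC replicate 3). Prkaa1 and Prkab2 in H against NC, Camkk2 in HL against H, and Prkaa2, Prkab2, Prkag2, Stk11 and Camkk2 in HL against NC kept an adjusted p under 0.05 in each of the 20 settings in which they were tested (19 for Prkaa2). Differences near 0 turned: Prkab1 in H against NC was 0.11 as TPM and 0.041 without H replicate 2 (-0.17 to 0.041 over the left-out libraries), and Prkag1 in HL against H was 0.066 without H replicate 1, 0.0043 without H replicate 3 and 0.0086 without HL replicate 3 (-0.084 to 0.066). Stk11 in H against NC was -0.19 in the main fit and 0.00027 as TPM, a rescaling that moves all genes of a library alike. The cause of the turns seen without a library was not tested. In HL against NC, Prkaa1 passed with variance weights (adjusted p = 0.0187), in the fit of only these groups (0.0148) and without H replicate 1 (0.0293), and Prkab1 with the weights (0.00594), in that fit (0.00374) and without H replicate 1 (0.0306) or 2 (0.00539), by limma. The genes called among all tested ones numbered 2188, 1283 and 1192, and were 3760, 2196 and 1885 without a filter, which tests more genes, 1065, 525 and 456 at a mean of at least 5 FPKM, which tests fewer, and 821 in HL against H and 644 in HL against NC with a pseudocount of 1. Leaving out 1 library gave 1719 to 2167, 835 to 1274 and 1095 to 1152, the 835 without H replicate 1.

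TPM moved the share of higher genes on the adjusted p from 55.2% to 39.9% in HL against H and from 44.3% to 58.2% in HL against NC. Same-numbered libraries deviated together with correlations between -0.04 and 0.09, and as these were small the numbers were not taken as pairs. In H against NC the same-numbered values, from 0.05 to 0.09, all lay above the differently numbered ones, from -0.07 to 0.01. No such order held in the other comparisons. With the replicate block, 2196, 1288 and 1180 genes were called, and Prkaa1 in H against NC kept -0.41 (limma adjusted p = 0.00147), and no member crossed 0.05.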
